A study of Mus musculus with 10 samples.

Results

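Mitochondrial beta-oxidation and ketogenesis were followed through a list of 31 genes, out of 41388 genes in the deposited tables, and all 31 were found by gene symbol after the Ensembl identifiers had been matched to GENCODE M21. The genes cover 7 of the carnitine shuttle and fatty acid entry, 3 medium-chain acyl-CoA synthetases, 8 acyl-CoA dehydrogenases, 5 enzymes of the later steps of the cycle, 3 auxiliary enzymes of unsaturated chains, 3 of electron transfer and 2 of ketone bodies. The list was drawn up by known function, and no measured value enters its rule, but it was chosen with earlier results of these data known.

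RNA was sequenced from the livers of 10 mice at 10 weeks of age, with 1 library per animal. The matBFMI group held 3 F1 males born to BFMI860-12/Hber (BFMI) mothers and C57BL/6NCrl (B6N) fathers, and the patBFMI group held 3 F1 males of the reciprocal cross, each from a different dam. BFMI, an inbred line that becomes obese early in life, and B6N, the lean parental strain, gave 1 female and 1 male each. F1 males received a high fat diet between day 21 and day 70, whereas for the inbred mice the sample records name a standard breeding diet and the design text a high fat diet.

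In the liver, long-chain fatty acids are activated to acyl-CoA, carried across the inner mitochondrial membrane as carnitine esters, and shortened by repeated rounds of dehydrogenation, hydration, dehydrogenation and thiolysis. The electrons pass through the electron transfer flavoprotein to the respiratory chain, and the acetyl-CoA enters the citric acid cycle or is made into ketone bodies, which the liver exports. Many of these genes are induced by PPARα in fasting and by fat feeding, and medium-chain acyl-CoA synthetases act on fatty acids that reach the matrix without the shuttle.

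Each library held between 46988713 and 96023811 reads counted in genes, of which the 31 genes took 0.604% to 0.822%. The 6 hepatocyte markers summed to 55658 CPM or more in every library, and the 4 adipocyte markers to at most 0.854 CPM, where CPM is the read count scaled to library size with TMM factors. The lane was 6 for matBFMI, 5 for patBFMI, 1 for the BFMI male and 4 for the other inbred libraries, so that lane and cross cannot be told apart. The B6N female was the lowest of the 10 libraries for 19 of 30 genes (Cpt1b, with 3 to 14 reads per library, was left out), at a median of -0.31 on the log2 scale against each gene's mean. In bulk RNA, fewer cells of a type and less RNA per cell cannot be told apart.

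The upstream sequences of 4 genes are shown because the level of the transcript differed between the strains (Acadm, Hadh and Acsm1) or because the start region is shared with another of the 31 genes (Hadhb, with Hadha). They are the 250 bases before the RefSeq start (GRCm38.p6), written 5′ to 3′ on the strand of the gene. Capitals mark AGGTCA, the core of the element that nuclear receptors such as PPARα bind, the CCAAT box and the GC box GGGCGG, on either strand. Acadm is at chr3:153944644-153944893 (minus strand), Hadh at chr3:131272102-131272351 (minus), Acsm1 at chr7:119617562-119617811 (plus) and Hadhb at chr5:30155003-30155252 (plus).
Acadm: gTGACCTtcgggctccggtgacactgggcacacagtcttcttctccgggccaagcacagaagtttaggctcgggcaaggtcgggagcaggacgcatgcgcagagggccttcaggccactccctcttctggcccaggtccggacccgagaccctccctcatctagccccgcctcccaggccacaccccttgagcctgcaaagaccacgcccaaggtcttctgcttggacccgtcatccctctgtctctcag
Hadh: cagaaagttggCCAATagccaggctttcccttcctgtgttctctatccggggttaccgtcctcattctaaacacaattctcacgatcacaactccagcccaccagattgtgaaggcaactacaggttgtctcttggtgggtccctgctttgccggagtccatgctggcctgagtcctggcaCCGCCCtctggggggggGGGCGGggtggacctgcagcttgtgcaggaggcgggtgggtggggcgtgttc
Acsm1: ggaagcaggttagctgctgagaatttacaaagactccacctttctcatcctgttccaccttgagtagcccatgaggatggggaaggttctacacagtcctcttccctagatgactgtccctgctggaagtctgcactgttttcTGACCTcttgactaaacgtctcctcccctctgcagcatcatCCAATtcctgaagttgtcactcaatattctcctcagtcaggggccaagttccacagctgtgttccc
Hadhb: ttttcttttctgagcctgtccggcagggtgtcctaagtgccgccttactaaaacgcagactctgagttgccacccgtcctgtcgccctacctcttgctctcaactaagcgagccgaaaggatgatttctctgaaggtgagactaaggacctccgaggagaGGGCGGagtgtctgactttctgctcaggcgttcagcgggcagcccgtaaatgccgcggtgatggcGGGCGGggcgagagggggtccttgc
Acadm and Acsm1 each carried 1 AGGTCA, on the strand opposite to the one shown, Acsm1 also a CCAAT box, Hadh a CCAAT box and 2 GC boxes, and Hadhb 2 GC boxes. Hadha and Hadhb, which encode the 2 subunits of the trifunctional protein, start head to head, and 228 of the 250 bases shown for Hadhb also lie in the window of Hadha. Windows of 250 bases before to 50 bases after the start were found for 26 of the 31 genes, 28 windows in all. The shares given below are of windows, and each count of genes below equals the count of their windows with that motif. In these windows AGGTCA was present in 5 genes (Acadm, Acadvl, Acsm1, Cpt1a and Echs1), against 16.255% of 32851 RefSeq windows. GGGCGG was present in 18 genes, against 35.658% of the windows, and CCAAT in 12, against 37.408%. The direct repeat of AGGTCA with any 1 base between was in the window of 0 genes and in 0.04% of all windows, and TATAAA in 0 genes and in 13.616% of all windows. These are matches of letters on both strands, and the AGGTCA count takes in those within the direct repeat.

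Levels of different genes were compared per length, on the deposited RPKM. The length behind it was near the union of all annotated exons (median ratio 0.953, with 73.8% of 6374 genes within 20% of that). That union was 10483 bases for Acsl1, 1516 for Acaa2 and 1164 for Etfb, so genes with long annotated exons rank lower. Without regard to length, Acsl1 at a mean of 1557 CPM was above Acaa2 at 832 CPM. The highest was Acaa2, the thiolase that ends each round of medium-chain oxidation, at 519 RPKM over the 10 libraries (range 383 to 563), and no library of another of the 31 genes reached its lowest value. Acsl1, which activates long-chain fatty acids, followed at 165 RPKM (107 to 191), then Etfb at 128 RPKM, Acat1 at 121 RPKM, Acsm1 at 119 RPKM, Cpt1a at 92.7 RPKM, Acadm at 92.6 RPKM and Eci1 at 92.5 RPKM. The ranges over libraries of neighbours in that order overlapped from Acsl1 down to Acad11 at 31.9 RPKM. Below it stood Mlycd at 23.6 RPKM, Acsm3 at 14.01 RPKM, Hadhb at 10.3 RPKM, Acad10 at 5.88 RPKM, Slc22a5 at 5.75 RPKM and Acad9 at 5.01 RPKM. Cpt1b, the muscle form of carnitine palmitoyltransferase 1, was at 0.0788 RPKM on 3 to 14 reads per library, so its value is uncertain.

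**Figure D1:**
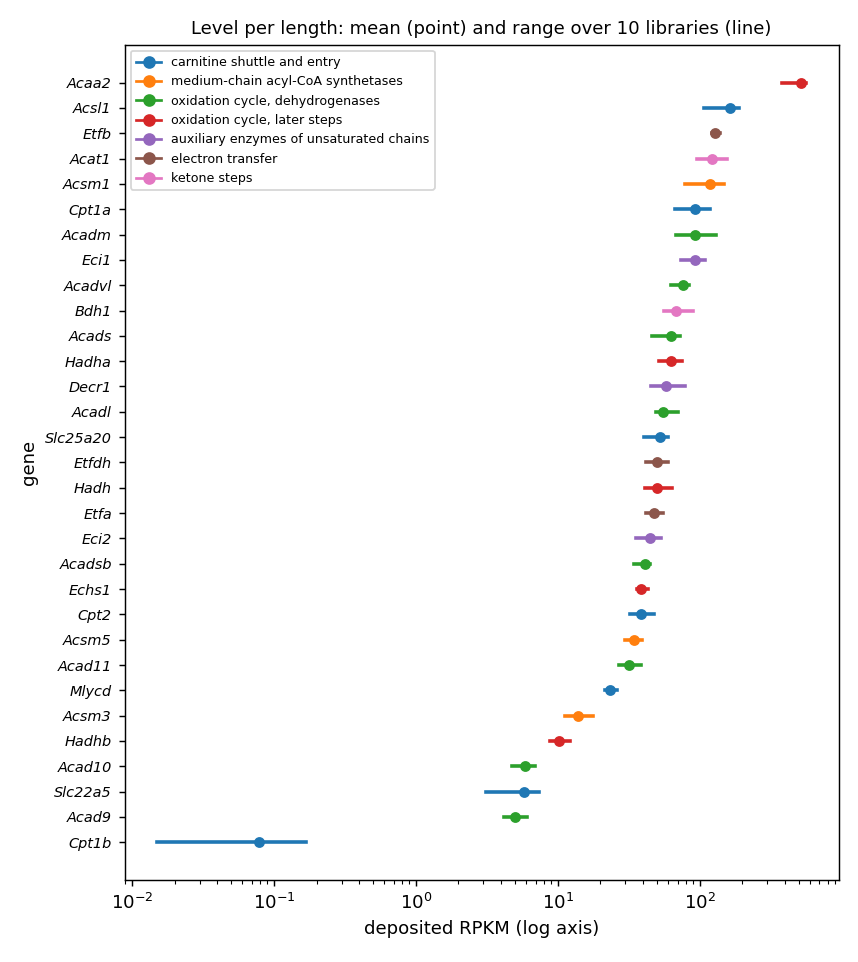
Deposited RPKM of 31 genes on a log axis, with the mean of 10 libraries as a point and the range as a line, coloured by step. Acaa2 stood alone at 519 RPKM, and Cpt1b lay far below the rest at 0.0788 RPKM.

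The first comparison asked how the direction of the cross moved these genes in F1 males. None of the 31 genes passed the test (edgeR quasi-likelihood, adjusted p under 0.05), where 0.143% of the 16797 genes tested passed, 16 higher and 8 lower in matBFMI (45 and 12 with library-size scaling). At an unadjusted p under 0.05, 9 of the 31 were higher and 0 lower in matBFMI, against 5.14% and 4.70% of all genes tested. DESeq2 and limma also called 0. The log2 fold change was positive for 26 of 31 genes, against 48.9% of all genes tested, with a median of 0.16 over the 31 and -0.01 over all genes. With library-size scaling, 30 of 31 were positive, against 65.1% of all genes, whose median was then 0.08. For 7 of the 31 the lowest matBFMI library was above the highest patBFMI library, against 8.25% of all genes, and for 0 the order was the reverse, against 7.07%.

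Bdh1, the dehydrogenase that interconverts acetoacetate and 3-hydroxybutyrate, had the smallest p of the 31. It was at 287, 294 and 314 CPM in matBFMI and at 210.2, 260.2 and 229 CPM in patBFMI, and the groups did not overlap. Its log2 fold change was 0.34 ± 0.10 (SE), adjusted p = 0.321. Hadh, the 3-hydroxyacyl-CoA dehydrogenase of short and medium chains, was next, at 292, 259 and 289 CPM in matBFMI and 209, 251 and 211 CPM in patBFMI. The highest patBFMI library was below the lowest matBFMI library here too, and the adjusted p was 0.394 at a log2 fold change of 0.31 ± 0.11. The other 5 with separate groups were Slc25a20, the carnitine-acylcarnitine translocase (log2 fold change 0.31), Acad11, a dehydrogenase of very long chains (0.21), Hadha, the large subunit of the trifunctional protein (0.24), and Eci2 and Decr1, which handle double bonds (0.26 and 0.29). None of these passed the test, with adjusted p between 0.407 and 0.487.

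By step, the 3 auxiliary enzymes were all higher in matBFMI at an unadjusted p under 0.05, where 5.14% of all genes tested were. Their median log2 fold change was 0.29, and 0 of the 3 passed after adjustment. Eci1, an enoyl-CoA isomerase, was at 111, 103 and 119.8 CPM in matBFMI and 80.89, 103.2 and 80.98 CPM in patBFMI, where patBFMI 2 reached the range of matBFMI. All 7 genes of the shuttle and entry were positive (median 0.31), where 48.9% of all genes were, and 65.1% with library-size scaling. They include Cpt1b, at 0.57 ± 0.53 (SE) on 3 to 14 reads per library. Cpt1a, the rate-controlling step of entry, was at 386, 423 and 547 CPM in matBFMI and 398, 323 and 344 CPM in patBFMI (log2 fold change 0.33 ± 0.15 (SE), adjusted p = 0.522). Of the 8 acyl-CoA dehydrogenases 7 were positive (median 0.14), and Acadsb, of short branched chains, was at -0.10. The later steps had a median of 0.14 and electron transfer of 0.07. Etfb, a subunit of the electron transfer flavoprotein, stood at 155, 148 and 159.7 CPM in matBFMI and 138, 163 and 135 CPM in patBFMI. The medium-chain synthetases Acsm1, Acsm3 and Acsm5 were each slightly below 0 with TMM scaling, between -0.08 and -0.04, and above 0 with library-size scaling.

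Of 29 further genes of the pathway 26 were tested for the cross, and 0 were called, against 0.143% of all genes tested. At an unadjusted p under 0.05, 7 were higher and 2 lower in matBFMI, against 5.14% and 4.70% of all genes.

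Among the patBFMI libraries, patBFMI 2 was the high one. The sum of the 31 genes was 8069, 7819 and 8014 CPM in matBFMI 1 to 3 and 7007, 7970 and 6529 CPM in patBFMI 1 to 3, so that the groups overlapped by patBFMI 2 alone. Kupffer cell and macrophage markers lay the other way, at 130 to 147 CPM summed in matBFMI and 162 to 169 CPM in patBFMI, with 0 of 6 markers called and 0 of 6 under 1 CPM in every library. The 4 skeletal muscle markers summed to 1.40 to 17.8 CPM in matBFMI and 0.185 to 1.00 CPM in patBFMI, so that the groups did not overlap, and 0 of the 3 tested were called. Their part in these values was not tested. Leaving out any 1 library kept the number of the 31 called at 0, with a median log2 fold change between 0.10 and 0.22.

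**Figure D2:**
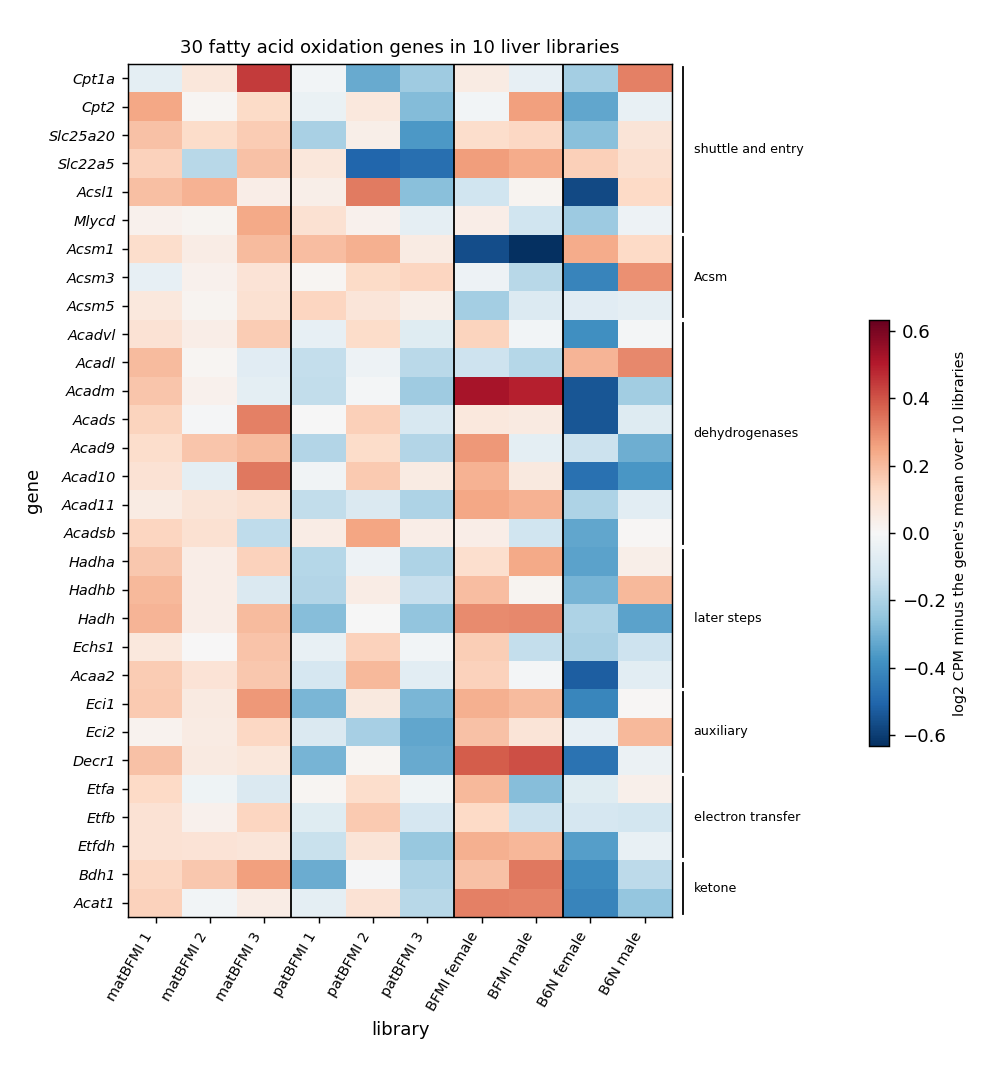
Log2 CPM of 30 genes in 10 libraries (columns, matBFMI, patBFMI, BFMI and B6N) minus the gene's mean over the libraries, ordered by step, with red above and blue below the mean. The B6N female column is the lowest for 19 of the 30 genes, and Acsm1 is low in both BFMI libraries.

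The second comparison set BFMI against B6N, over 1 female and 1 male of each strain, with most of the spread taken from the F1 males. Of the 31 genes 6 were higher and 1 was lower in BFMI, against 3.61% higher and 3.05% lower of the 19974 genes tested. The 6 were Acadm, Acat1, Decr1, Hadh, Acad10 and Bdh1, and the 1 was Acsm1. A positive log2 fold change was seen for 24 of 31, against 45.4% of all genes tested, with a median of 0.21 over the 31 and -0.04 over all. Both BFMI libraries lay above both B6N libraries for 16 of 31 genes, against 20.8% of all genes, and below them for 4 (Cpt1b, Acadl, Acsm1 and Acsm5), against 23% of all genes.

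These calls rested on few libraries. Sex is a term of the fit, so leaving out either inbred female set the BFMI male against the B6N male alone. The median was then 0.050 without the BFMI female and 0.047 without the B6N female. In either case 16 of 31 were positive, against 51.9% and 50.9% of all genes. Leaving out either inbred male likewise set the 2 females against each other. The median was then 0.44 without the BFMI male and 0.41 without the B6N male. In either case 27 of 31 were positive, against 49.4% and 45.1% of all genes. With all 4 inbred libraries kept but without matBFMI 1, matBFMI 2 or patBFMI 3, 3 were called (Acadm, Acat1 and Acsm1), and without matBFMI 3, 4 (those and Acad10). These calls do not carry over to runs without an inbred library, where 1 library of that strain was left. The log2 fold change of Acadm was 0.71 without the B6N female and 1.09 without the BFMI male. The 4 inbred libraries alone gave 3 (Acad10, Acadm and Acsm1). DESeq2 gave 10, adding Acad11, Acadl and Etfdh. The median over the 31 genes was between 0.05, without the B6N female, and 0.44, without the BFMI male.

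Some markers of other cells moved with the strain. Those of hepatocytes, stellate cells, sinusoidal endothelium, cholangiocytes, adipocytes and skeletal muscle had 0 called. Erythroid, exocrine pancreas, and Kupffer cell and macrophage markers had calls, where 3.61% of all genes tested were higher and 3.05% lower. Erythroid markers summed to 676 to 805 CPM in BFMI and 209 to 313 CPM in B6N, with 4 of 4 called higher. Exocrine pancreas markers summed to 0.194 to 0.198 CPM in BFMI and 10.3 to 54.7 CPM in B6N, with 4 of 4 called lower, and Kupffer cell and macrophage markers to 152 to 199 CPM and 238 to 258 CPM, with 2 of 6 called lower. No marker of these 3 lists was at 0 in every library. Their part in the strain differences was not tested.

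Among the dehydrogenases, which introduce the first double bond, Acadm had the highest log2 fold change of the 31 genes in this comparison. Acadm, the medium-chain enzyme (chromosome 3, 153922357 to 153944632, minus strand, GRCm38), was at 390.1 and 383 CPM in the BFMI female and male and 186 and 233 CPM in the B6N female and male. The BFMI libraries were close to each other and above all 8 others, and F1 males were at 307, 276 and 260.3 CPM in matBFMI and 244, 269.6 and 232 CPM in patBFMI, where patBFMI 3 was just below the B6N male. The log2 fold change of BFMI over B6N was 0.89 ± 0.15 (SE), adjusted p = 0.00551. Acad10, a dehydrogenase of less certain substrate (chromosome 5, 121621026 to 121660514, minus), was at 40.3 and 36.0 CPM in BFMI and 24.9 and 26.7 CPM in B6N. Its log2 fold change was 0.56 ± 0.14 (SE), adjusted p = 0.0434, and since 1106 bases are 96.8% identical to Acad12 the counts of the 2 genes may be shared in part.

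Acadl, the long-chain enzyme, lay the other way, and was named after its values were seen. It was at 99.3 and 95.8 CPM in BFMI and 126 and 135 CPM in B6N, with no overlap. At a log2 fold change of -0.42 ± 0.13 (SE), adjusted p = 0.0971, it was past the threshold with DESeq2 alone. The very long-chain enzyme Acadvl (0.26, with 42.9% of its exon bases opposite Dvl2), the short-chain enzyme Acads (0.37), Acad9, which also assembles complex I (0.33), Acad11 (0.37) and Acadsb (0.12) did not pass.

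In the later steps, Hadh (chromosome 3, 131233419 to 131272101, minus) was at 309.8 and 310.2 CPM in BFMI and 219.8 and 199 CPM in B6N. Both BFMI libraries were above both B6N libraries, at a log2 fold change of 0.57 ± 0.14 (SE), adjusted p = 0.0405. The subunits of the trifunctional protein, whose upstream windows are shared, were at 0.32 ± 0.13 for Hadha and 0.15 ± 0.17 for Hadhb, and neither passed. The hydratase Echs1 was at 0.17. Acaa2 was at 913 and 816 CPM in BFMI and 574 and 787 CPM in B6N, a log2 fold change of 0.36 ± 0.17 (SE), adjusted p = 0.301. The B6N female was its lowest library.

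Of the auxiliary enzymes, Decr1, the dienoyl-CoA reductase (chromosome 4, 15917240 to 15945507, minus), was at 291 and 296 CPM in BFMI and 161 and 217 CPM in B6N. The 2 BFMI libraries stood above the other 8, with a log2 fold change of 0.65 ± 0.16 (SE), adjusted p = 0.0371. Eci1 (0.42) and Eci2 (0.06) did not pass, and neither did Etfdh, which hands the electrons to ubiquinone (0.42 ± 0.15 (SE), adjusted p = 0.149), Etfa (-0.01) or Etfb (0.10). Of the shuttle and entry 0 of 7 were called. Cpt2, which returns acyl groups from carnitine to CoA, was at 0.31, Slc25a20 at 0.21, the carnitine transporter Slc22a5 at 0.13, Acsl1 at 0.17, Cpt1a at -0.05 and Mlycd, which removes the inhibitor malonyl-CoA, at 0.09.

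Both ketone genes among the 31 were higher in BFMI. Acat1, the thiolase that joins or splits acetoacetyl-CoA (chromosome 9, 53580522 to 53610382, minus), was at 576 and 572 CPM in BFMI and 345 and 389 CPM in B6N. F1 males lay between the strains, at 509, 455 and 476 CPM in matBFMI and 442, 490.2 and 408 CPM in patBFMI. The log2 fold change of BFMI over B6N was 0.65 ± 0.14 (SE), adjusted p = 0.0201. Bdh1 (chromosome 16, 31422280 to 31458901, plus) was at 298 and 331 CPM in BFMI and 198 and 234 CPM in B6N, a log2 fold change of 0.54 ± 0.14 (SE), adjusted p = 0.0447. Of its exon bases 13.7% lie opposite Gm15743.

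Of the further pathway genes 27 were tested in this comparison. Acot2, a mitochondrial acyl-CoA thioesterase whose counts may be shared with Acot1, was higher in BFMI (1.08 ± 0.24 (SE), adjusted p = 0.0242). Acot13, another thioesterase, was lower (-0.63 ± 0.12 (SE), adjusted p = 0.0110), as was Acsm2 at 0.194 and 0.346 CPM in BFMI and 1.69 and 0.998 CPM in B6N (-2.21 ± 0.46 (SE), adjusted p = 0.0185).

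Acsm1, which activates medium-chain acids in the matrix (chromosome 7, 119607026 to 119662515, plus), was the only one of the 31 that was called lower in BFMI. It was at 176 and 168 CPM in BFMI and 306 and 284 CPM in B6N. Its 8 other libraries formed 1 range, with 282, 269 and 299 CPM in matBFMI and 298, 304 and 270.2 CPM in patBFMI, all above BFMI. The log2 fold change was -0.78 ± 0.13 (SE), adjusted p = 0.00501, and leaving out any 1 inbred library took the adjusted p past 0.05, to between 0.0568 and 0.0709. Acsm3 (-0.04, with 39.7% of its exon bases opposite Eri2) and Acsm5 (-0.09) did not pass.

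**Figure D3:**
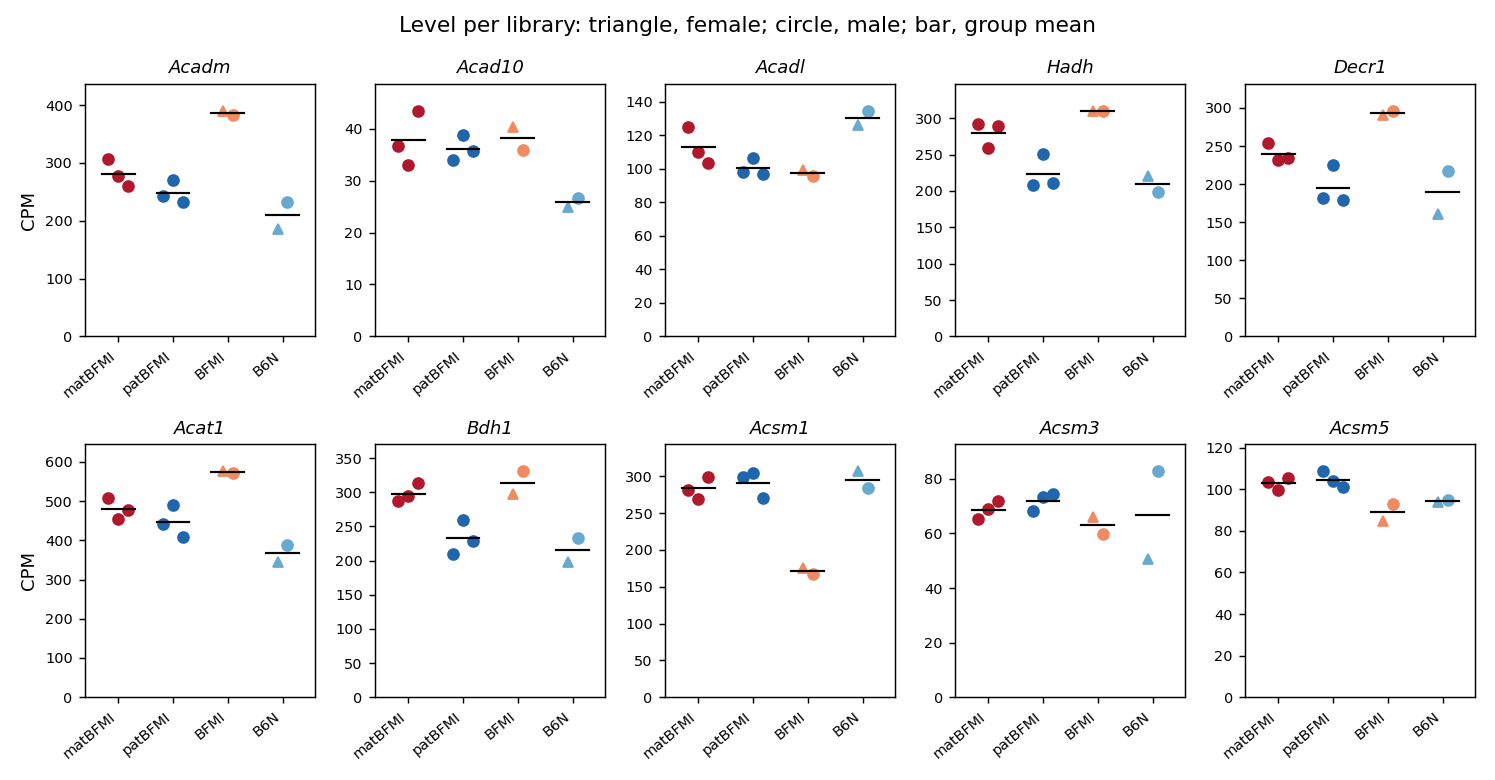
CPM per library of 10 genes in matBFMI, patBFMI, BFMI and B6N, each axis from 0, with females as triangles, males as circles and the group mean as a bar. Acadm, Decr1 and Acat1 are highest in BFMI, and Acsm1 is lowest there, at 176 and 168 CPM.

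The cross and the strain comparison share no libraries, apart from the spread, which the F1 males lend to the strain fit. A positive log2 fold change in both, that is higher in matBFMI than in patBFMI and higher in BFMI than in B6N, was found for 23 of 31 genes, against 28.9% of the 16797 genes tested in both. Since 26 of the 31 were positive in the cross and 24 between the strains, a high count in both follows in part from those counts alone. The F1 libraries were all male, whereas the strain comparison took in both sexes. In the male pair of the strains 16 of 31 genes were above 0, against 52% of all genes. In the female pair 27 of 31 were, against 45.1%. The 3 Acsm genes were negative in both comparisons with TMM scaling, and positive in the cross with library-size scaling.

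**Figure D4:**
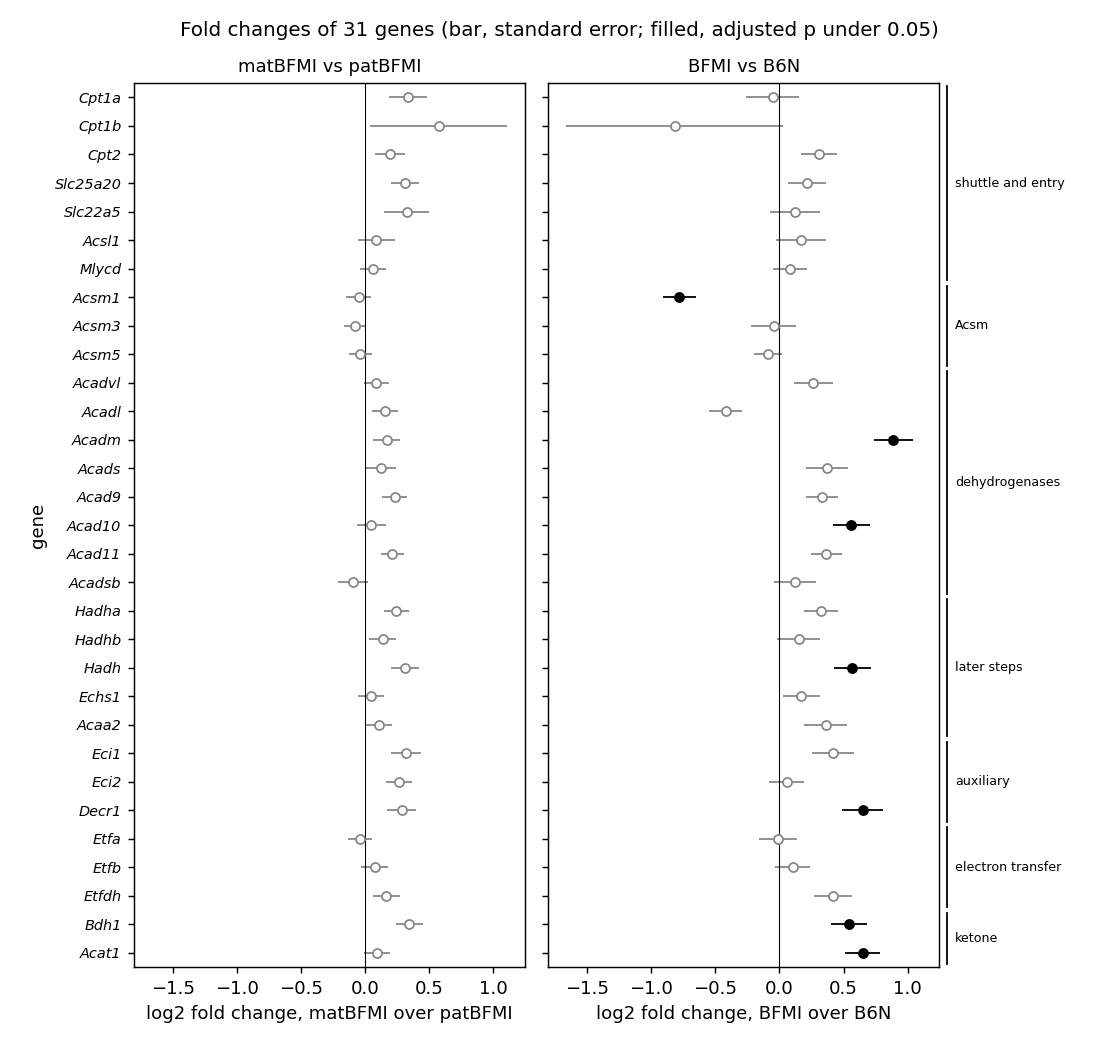
Log2 fold change of 31 genes by step, for matBFMI over patBFMI at left and BFMI over B6N at right, on 1 scale, with bars for 1 standard error and filled points for adjusted p under 0.05. The left panel has 0 filled points, and the right panel has 6 above 0 and 1, Acsm1, below it.

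The next comparison placed F1 males of both crosses against the level midway between the inbred strains, on the log scale. F1 and inbred libraries also differ in lane and, by the sample records, in diet, which cannot be told apart from being F1 or inbred. Sex was a term of the fit, and the 8 male libraries alone gave 0 of the 31 called and a median of -0.01. None of the 31 genes passed, against 2.05% of the 19974 genes tested. At an unadjusted p under 0.05 there was 1 higher and 0 lower, against 9.02% and 7.61% of all genes, and DESeq2 called 1, Acsm1. The median log2 fold change was -0.02, with 15 of 31 positive, against 50.8% of all genes. That median was -0.19 without the BFMI male and 0.12 without the B6N male. Acsm1 averaged 287 ± 15.5 CPM in F1 males (SD, n = 6), a log2 fold change of 0.40 ± 0.11 (SE), adjusted p = 0.0955 over the midpoint, on the side of B6N. Acad9 was at 43.9, 45.9 and 46.7 CPM in matBFMI, 35.7, 44.0 and 35.8 CPM in patBFMI, 49.2 and 39.0 CPM in BFMI and 37.0 and 32.7 CPM in B6N, with a log2 fold change of 0.23 ± 0.10 (SE), adjusted p = 0.303. Of the 27 further genes tested only Acacb, the mitochondrial acetyl-CoA carboxylase that makes the Cpt1 inhibitor malonyl-CoA, was called. It was at 337, 432 and 612 CPM in matBFMI and 242, 369 and 313 CPM in patBFMI, against 268 and 117 CPM in BFMI and 303 and 188 CPM in B6N. This was a log2 fold change of 1.34 ± 0.24 (SE), adjusted p = 0.0248.

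Females and males were compared over the 4 inbred libraries, in the same fit. None of the 31 genes passed, against 0.556% of all genes tested, and 0 had an unadjusted p under 0.05, where 3.83% of all genes were higher and 3.96% lower in females. DESeq2 called 0. Of the 27 further pathway genes tested, 0 were called, and 4 were higher and 2 lower at an unadjusted p under 0.05, against the same shares of all genes. Among the 31, the 2 with the smallest p were Acsl1 and Acad9. Acsl1 was at 1406 and 1033 CPM in the BFMI and B6N females and 1553 and 1674 CPM in the males of those strains (-0.42 ± 0.20 (SE), adjusted p = 0.671). Its F1 males spanned 1751, 1788 and 1580.4 CPM in matBFMI and 1575, 1928 and 1279 CPM in patBFMI. For Acad9 the log2 fold change was 0.26 ± 0.12 (SE), adjusted p = 0.700. The median over the 31 genes was -0.08, and it was between -0.28, without the BFMI male, and 0.03, without the B6N female.

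The strain difference was then set side by side for the 2 sexes, each with 1 library a strain. In females 27 of 31 genes were above 0 (median log2 ratio of BFMI over B6N 0.41), against 45.1% of all genes. In males 16 of 31 were above 0 (median 0.05), against 52% of all genes. The 31 genes summed to 5767 CPM in the B6N female, the lowest library for 19 of 30 genes, and to 7368 CPM in the B6N male. In the BFMI female and male they summed to 7894 and 7792 CPM. The part of this 1 library in the difference between the sexes was not tested. The interaction term, whose spread comes wholly from F1 males, called 0 of 31, against 0.03% of all genes, with 3 of 31 higher and 0 lower at an unadjusted p under 0.05, against 3.92% and 3.95% of all genes, and DESeq2 called 0. The term was positive for 26 of 31, against 45.8% of all genes. Acsm3 had the smallest p, with 66.2 and 59.7 CPM in the BFMI female and male and 50.6 and 82.7 CPM in the B6N female and male (0.86 ± 0.22 (SE), adjusted p = 0.339). Hadhb was next, with 76.0 and 67.1 CPM in BFMI and 54.2 and 76.4 CPM in B6N, in the same order of sexes (0.68 ± 0.27 (SE), adjusted p = 0.594). Acadm, Acat1 and Bdh1 had positive ratios in both sexes. Those of Acadm were 1.06 in females and 0.71 in males. Acsm1 was negative in both, at -0.80 in females and -0.76 in males.

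**Figure D5:**
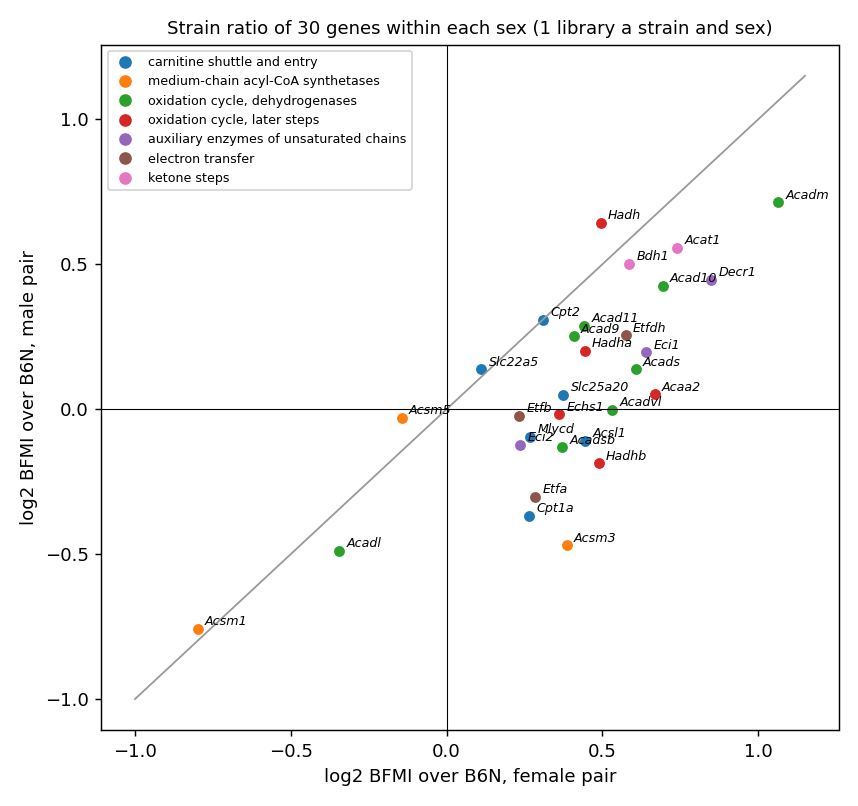
Log2 ratio of BFMI over B6N for 30 genes, with the female pair on the horizontal and the male pair on the vertical axis, 1 library a strain and sex, coloured by step, with the line of equal ratios. Most points lie right of 0 and below the line. Acadm is at 1.06 and 0.71, and Acsm1 at -0.80 and -0.76.

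For the 30 genes without Cpt1b, the coefficient of variation over the 6 F1 males had a median of 10.1% and ran between 3.00% (Acsm5) and 20.6% (Slc22a5), against a median of 9.37% over the 7446 genes with a mean of at least 500 counts. Cpt1a varied by 19.7% and Acaa2 by 8.94%.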

How the data were processed

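The authors trimmed reads with Trimmomatic (0.32 in the submitters' processing notes), mapped them to GRCm38 and dropped duplicates with Picard (1.99). They then counted reads on the genes of Ensembl release 81, and deposited these raw counts beside RPKM made after quantile normalisation. For mapping, those notes give TopHat2 2.10 and Bowtie2 2.2.6, and the paper BWA. The molecule field reads polyA RNA and the protocol names ribosomal RNA removal. In both deposited matrices 3 columns match no sample record and were not used. Of 41388 identifiers, 40340 matched GENCODE M21.

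Counts were scaled by TMM and tested with the quasi-likelihood test of edgeR 4.0.16 in R 4.3.3, with Benjamini-Hochberg adjustment over all genes tested and a threshold of 0.05. The cross was fitted on the 6 F1 libraries (at least 10 counts in 3 libraries), and the other contrasts on all 10 with 4 groups plus sex (at least 10 counts in 2 libraries). The interaction added a strain by sex term. The biological coefficient of variation was 15.9% for the cross and 17.7% for the fit of all 10 libraries. RPKM were used for levels between genes. Strain ratios within a sex are of CPM with 0.1 added. Scripts were tested on simulated data.

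Members and lists were chosen with earlier results of these data known. Library values, for some or all groups, are given for members called in a comparison, the 2 of smallest p in each and the most abundant of each step. Of the other pathway genes called and reported, Acsm2 and Acacb have library values, and Acot2 and Acot13 a fold change only. The library values of Cpt1a (F1 males) and Acadl (inbred mice) were added after values were seen. Alternatives were other scalings, filters, DESeq2 1.42.0, limma 3.58.1 on log2(RPKM + 1) and log2(RPKM + 0.1), sample subsets, the offspring number as a block, and the omission of each library in turn. Similar transcripts were found with BLAST 2.17.0, and figures drawn with matplotlib 3.10.9. F1 offspring came from different dams, and p-values measure the spread between these animals. Results for some genes of the pathway are not reported here.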

Additional observations from a re-analysis of the deposited data

How the results depend on the processing

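No called gene of the 31 changed direction under any alternative run. Genes called between the crosses numbered 24, and 57 with library-size scaling, 307 with DESeq2, 696 without a filter, 15 with at least 50 counts, 2 with limma at either pseudocount and 12 in the fit of all 10 libraries. With the offspring number as a replicate block, 175 genes were called and 0 of the 31; the correlations of the deviations of same-numbered animals were 0.39, 0.0035 and 0.20, so the number was not taken to pair them, and not every animal correlated best with its own number. BFMI against B6N gave 1332 genes, and 364 and 320 with limma (pseudocounts 1 and 0.1), and 3 of the 31 in the 4 inbred libraries. F1 males against the midpoint gave 410 genes, and 882 with DESeq2 (1 of the 31), 1410 without a filter, and 264 and 42 with limma, where the median of the 31 was -0.14 and -0.16. Females against males gave 111 genes, and 388 with DESeq2, 582 without a filter, 40 and 34 with limma, and 419 in the 4 inbred libraries. The interaction gave 6 genes, and 10 with library-size scaling, 127 with DESeq2, 399 without a filter, and 0 and 1 with limma. Its median over the 31 was 0.33, and 0.18 with library-size scaling, 0.47 without a filter, and 0.22 and 0.22 with limma. Leaving out each library gave 7 to 63 genes for the cross (0 of the 31, median 0.10 to 0.22), 536 to 1523 for the strains (0 to 7 of the 31, median 0.047 to 0.44), 13 to 937 against the midpoint (0 of the 31, -0.19 to 0.12) and 38 to 155 for sex (0 of the 31, -0.28 to 0.032). Where an arm was left with 1 library, it was assumed to vary like the others. In the interaction the median over all genes tested was -0.06, and -0.21 with library-size scaling and -0.25 and -0.40 with limma. Without a filter it was -0.28, over 38778 genes. Against the midpoint that median was 0.01, and -0.28 and -0.67 with limma. The cause of these changes was not tested.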

Other observations

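Ratios of raw counts between genes of 1 library do not depend on its scaling, and these were chosen after the values were seen. Acadm had 3.93 times the counts of Acadl in the BFMI female and 3.99 in the BFMI male, against 1.48 in the B6N female and 1.73 in the B6N male. The 6 F1 males fell between the strains, at 2.45, 2.52 and 2.51 in matBFMI and 2.49, 2.53 and 2.40 in patBFMI, with the 2 crosses overlapping. For Acsm1 over Acsm5 the ratio was 2.07 and 1.80 in the BFMI female and male, 3.27 and 2.99 in the B6N female and male, and 2.67 to 2.93 in the F1 males.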
